A study of Mus musculus with 8 samples.

Results

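T-box genes and the stretch of chromosome 5 around Tbx3 and Tbx5 were examined for H3K27me3 in ChIP-seq (sequencing of immunoprecipitated chromatin) of neural stem cells (NSCs). The members were 17 of the 13585 regions in the deposited table. Of these, 9 lay at the bodies, with 5 kb on each side, of the T-box genes Tbx1, Tbx2, Tbx3, Tbx4, Tbx5, Tbx15, Tbx18, Tbx20, Tbr1 and Eomes. The other 8 were the remaining regions of a 1351250 bp interval, from the end of Med13l to the start of Rbm19, that holds Tbx3 and Tbx5 and 10 regions in all. All 10 member genes had a region, and Tbx2 and Tbx4 shared 1. The interval and the genes were chosen from the measured difference between genotypes, so every difference below is a description and none was tested.

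The comparison was between NSCs carrying wild-type SMCHD1 (Smchd1GFP+/+, WT) and NSCs homozygous for the MommeD43 missense variant of this chromatin silencing protein (Smchd1GFPMommeD43/MommeD43). All cells were female, C57BL/6J, derived from embryonic cortex, kept for fewer than 10 passages, and carried a GFP tag on Smchd1. Each genotype had 3 H3K27me3 libraries from separate NSC lines and 1 whole cell extract, which was not analysed here. The table holds 1 value per genotype, the authors' mean of log2 normalized read counts over the 3 lines, so there is no SD, no test and no replicate check. Whether a difference came from genotype or from lines that happened to differ cannot be told apart.

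H3K27me3 is placed by Polycomb repressive complex 2, typically over CpG-rich starts of developmental regulators that a cell keeps silent, and a silent gene of this kind often lies under a broad domain of the mark. T-box proteins are transcription factors that share a DNA-binding domain and direct early development. Tbx2, Tbx3, Tbx4 and Tbx5 form linked pairs of paralogs: Tbx3, a repressor needed in limb, mammary gland and cardiac conduction system, neighbours Tbx5, an activator needed in heart and forelimb, and Tbx2 neighbours Tbx4, a hindlimb regulator. Tbr1 and Eomes belong to the cortex itself, where Eomes marks intermediate progenitors and Tbr1 early-born deep-layer neurons.

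Sequences were read from the GRCm38 genome to show the base composition under the mark, with each CpG dinucleotide in capitals. The first is the most CpG-rich 300 bases of the interval region with the largest difference, chr5:119803877-119804176 (plus strand), 28.8 kb before the start of Tbx5 and inside no annotated gene. The second is the most CpG-rich 300 bases of the region with the lowest WT level per kb, chr5:119626777-119627076 (plus strand), inside the long noncoding genes Tbx3os1 and Gm16063 and 205.9 kb before the start of Tbx5. Neither overlaps an exon of a protein-coding gene. They hold 32 and 22 CpGs.
largest difference: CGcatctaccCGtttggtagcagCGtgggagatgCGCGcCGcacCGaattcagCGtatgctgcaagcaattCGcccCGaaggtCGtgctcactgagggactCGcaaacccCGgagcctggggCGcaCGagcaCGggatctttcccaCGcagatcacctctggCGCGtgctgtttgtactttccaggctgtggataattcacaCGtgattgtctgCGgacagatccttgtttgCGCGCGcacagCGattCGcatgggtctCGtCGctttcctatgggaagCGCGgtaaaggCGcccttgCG
lowest WT level: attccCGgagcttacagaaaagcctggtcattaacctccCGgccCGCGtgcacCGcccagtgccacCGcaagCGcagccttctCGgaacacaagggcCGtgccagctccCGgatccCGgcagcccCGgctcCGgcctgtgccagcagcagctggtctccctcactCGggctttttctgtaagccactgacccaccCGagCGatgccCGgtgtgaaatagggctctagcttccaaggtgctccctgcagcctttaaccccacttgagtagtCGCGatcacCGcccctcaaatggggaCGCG
For comparison, 250 bases upstream of a start are shown for a member gene whose region was higher in MommeD43 and for one whose region was nearly equal in both genotypes, from RefSeq on GRCm38.p6. The Tbx4 sequence, chr11:85896515-85896764 (plus strand), precedes a RefSeq start that lies 10343 bp inside the GENCODE gene body, downstream of the first GENCODE start. It has 6 CpGs, which is the median of 32851 promoters in the same table. The Tbx20 sequence, chr9:24774304-24774553 (minus strand), has 22, above the upper quartile of 16.
Tbx4: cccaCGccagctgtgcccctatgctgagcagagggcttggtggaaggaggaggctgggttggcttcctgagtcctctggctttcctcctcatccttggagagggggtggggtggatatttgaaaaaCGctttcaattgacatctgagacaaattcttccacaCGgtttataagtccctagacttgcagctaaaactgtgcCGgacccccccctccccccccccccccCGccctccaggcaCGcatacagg
Tbx20: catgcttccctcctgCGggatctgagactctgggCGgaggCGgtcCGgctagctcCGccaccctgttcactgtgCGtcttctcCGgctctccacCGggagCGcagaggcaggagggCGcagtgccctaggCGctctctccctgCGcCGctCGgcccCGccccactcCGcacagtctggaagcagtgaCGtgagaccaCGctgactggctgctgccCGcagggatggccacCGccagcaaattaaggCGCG
Promoter entries were matched for 6 of the 10 member genes (Tbx1, Tbx4, Tbx18, Tbx20, Tbr1 and Eomes) and not for Tbx2, Tbx3, Tbx5 and Tbx15. The core T-box site GGTGTGA, searched on both strands (reverse TCACACC) in the 250 upstream bases, was in 0 of the 7 matched promoters of member genes and in 3.33% of all promoters. With so few promoters and so low a share, this count is near the background. GGTGTGA does occur in the sequence printed above for the region with the lowest WT level, which was outside this promoter search.

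Across the interval every region had a higher H3K27me3 value in MommeD43 than in WT. All 10 differences, MommeD43 minus WT, were at least 1 on the log2 scale, the fold threshold used, and their median was 2.56. A difference of at least 1 was found in 6.09% of all regions and 2.28% of autosomal regions. This count follows from how the interval was chosen. The 10 regions covered 222500 bp, 16.5% of the interval, and their summed normalized count was 5950 in WT and 33662 in MommeD43, 5.66 times as much. Per kb of region, the mean level was 26.7 in WT and 151 in MommeD43. The errors given below are the smallest that counting reads allows and leave out variation between lines. In the paper, ChIP-seq is held to be poorly suited to comparing amounts of a histone mark. By immunofluorescence it reported a modest decrease of H3K27me3 in MommeD43 cells, on the inactive X and over the whole nucleus.

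Tbx3 and Tbx5 carried most of the signal in both genotypes. The region chr5:119640501-119715550 contains the whole of Tbx3 (chr5:119670669-119684724, plus strand), all 6624 bp of its exons, and noncoding Tbx3os1, Tbx3os2 and Gm16064. Its log2 value was 11.67 in WT and 14.19 in MommeD43, a difference of 2.51 with a 95% counting interval of 2.46 to 2.57. The geometric mean over the lines was 999 reads per WT library and 7087 per MommeD43 library. Tbx5 (chr5:119832668-119885219, plus strand) was covered over its first 44.3%, including its start and 2141 of its 4675 exonic bp, by chr5:119817501-119855950. That region had a log2 value of 10.32 in WT and 12.98 in MommeD43, and the difference was 2.67 (counting interval 2.58 to 2.75) on 390 and 3073 reads per library. Together these regions held 76.3% of the normalized counts of the interval in WT and 79.5% in MommeD43.

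Per kb, the Tbx3 region went from 43.5 to 249 normalized counts and the Tbx5 region from 33.2 to 211. Among autosomal regions in WT, 68.6% had a lower level per kb than Tbx3 and 40.8% a lower level than Tbx5. In MommeD43 these shares were 98.8% and 98.4%. By level per kb, neither gene stood out from other regions in WT, and both ranked near the top in MommeD43. By reads per library in WT they had 999 and 390, against a median of 100.1 over all regions. Both regions were longer than the median of 10250 bp. A level per kb averages over a region whose limits come from peaks of both genotypes, so a narrow WT peak would be diluted.

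Between the genes lay the region with the largest difference of the interval, chr5:119789001-119815900. It holds the noncoding gene 1700021F13Rik and no protein-coding gene, and 1600 bp separate it from the Tbx5 region. Its log2 value was 8.33 in WT and 11.73 in MommeD43, a difference of 3.397 (counting interval 3.23 to 3.57), from 98.5 to 1288 reads per library. The level per kb was 11.97 in WT, where 0.811% of autosomal regions were lower, and 126 in MommeD43, where 95.6% were lower. Counting this region itself, 2 autosomal regions had a difference as large, and the CpG-rich stretch printed first comes from it.

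The 3 weakest regions of the interval had few reads in WT. At chr5:119623551-119630350, inside Tbx3os1 and Gm16063, the value was 4.29 in WT and 7.48 in MommeD43, a difference of 3.19 (counting interval 2.49 to 3.88). At chr5:119744751-119752450, between Tbx3 and Tbx5, it was 4.95 and 7.76, a difference of 2.81 (2.25 to 3.37). At chr5:119082801-119090200, in the gene desert before Tbx3, it was 4.68 and 7.29, a difference of 2.61 (1.99 to 3.23). Neither of the last 2 overlaps any annotated gene.

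Depth behind these 3 WT values was low, at geometric means of 6.00, 9.44 and 7.83 reads per library against 67.9, 82.3 and 59.2 in MommeD43. The pooled values give the product of the 3 library counts, which was 216, 840 and 480 in WT. At least 1 WT line therefore had no more than 6, 9 and 7 reads. Peaks of both genotypes defined the regions, so these 3 may have entered through a peak in MommeD43 alone. Their differences would then follow in part from how regions were chosen, which could not be checked here.

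**Figure D1:**
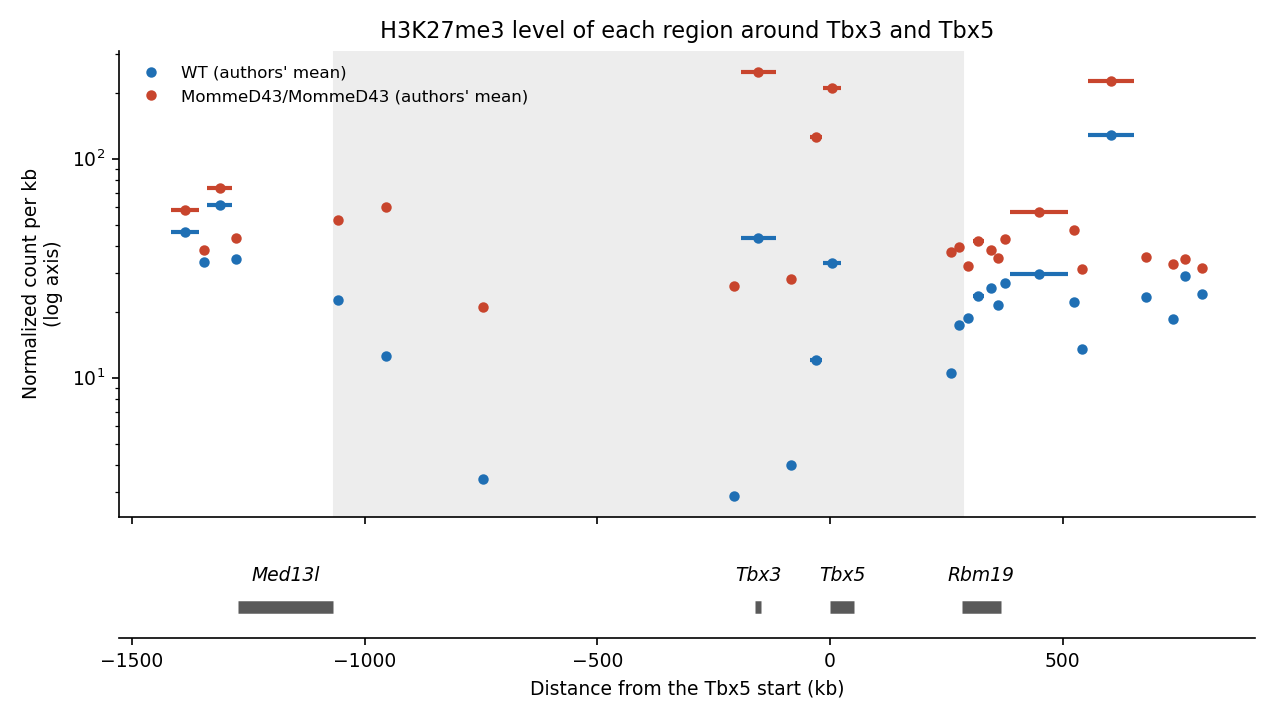
H3K27me3 level of each region around Tbx3 and Tbx5, as the authors' mean normalized count per kb (log axis), against distance from the Tbx5 start in kb. Each point is 1 region, horizontal bars give its length, blue is WT, red is MommeD43/MommeD43, grey shading is the interval and dark bars below are genes; inside the shading the red points lie above the blue ones throughout, with Tbx3 at 43.5 and 249 and Tbx5 at 33.2 and 211.

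Differences were smaller towards both ends of the interval. In the gene desert after Med13l, chr5:118871001-118887550 had a log2 value of 7.70 in WT and 9.95 in MommeD43, a difference of 2.26 (counting interval 2.03 to 2.48). Past Tbx5, chr5:120087201-120096250 had 6.57 and 8.40, a difference of 1.83 (1.49 to 2.17). The last region before Rbm19, which encodes an RNA-binding protein and is not a T-box gene, contains 185 bp of exon and the start of that gene, and had 8.01 and 9.19, a difference of 1.18 (0.97 to 1.40). The first region of the interval, just past the end of Med13l, a Mediator kinase module subunit, had 8.82 and 10.03, a difference of 1.21 (1.05 to 1.37).

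Just outside these limits, the nearest region before, at the start of Med13l, differed by 0.32 (8.14 in WT and 8.46 in MommeD43). The nearest region after, inside Rbm19, differed by 0.80 (7.62 and 8.42). On the side of Rbm19 the difference did not return to the autosomal median of 0.08 at once: over the next 1 Mb all 20 regions were above 0, as were 57.7% of autosomal regions, with a median of 0.75, and 4 reached 1: 2 between Rbm19 and Lhx5, at 1.08 and 1.21, 1 in Oas3 at 1.18 and 1 past Oas1e at 1.17. On the side of Med13l the 16 regions within 1 Mb were all above 0 as well, with a median of 0.42, and 2 reached 1, both inside Nos1, the neuronal nitric oxide synthase gene, at 2.74 and 1.01. These 6 were named after their values were seen. The median over the 742 regions of chromosome 5 was 0.22.

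**Figure D2:**
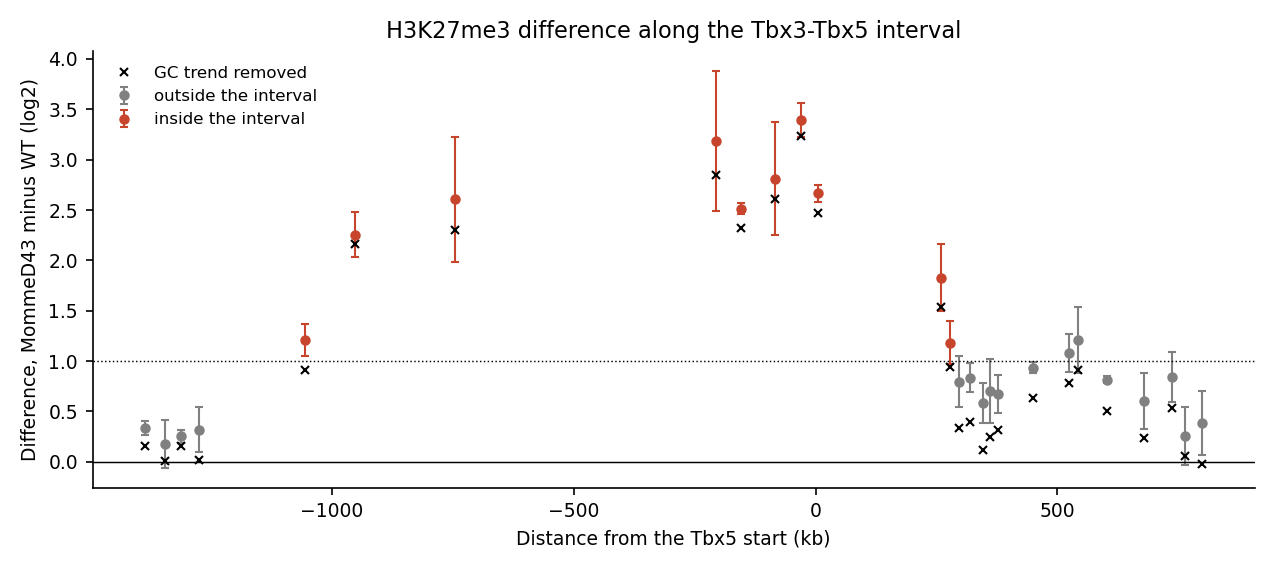
Difference in H3K27me3, MommeD43 minus WT on the log2 scale, for regions along the interval and beside it, against distance from the Tbx5 start in kb. Points with bars are deposited differences with 95% counting intervals (red inside the interval, grey outside), crosses are differences with the GC trend removed and the dotted line marks 1; red points run from 1.18 to 3.397, highest between Tbx3 and Tbx5.

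The interval was also the longest autosomal run of neighbouring regions with differences of at least 1. There were 19 such runs of 3 or more regions, and the next longest had 6, which again follows from how the interval was chosen. Within the interval, regions were separated by 1600 to 533350 bp without any region. Differences of at least 2 were found in 7 of its 10 regions and in 24 autosomal regions in all.

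H3K27me3 at the other T-box member genes was high in both genotypes, with small differences. Their 7 regions had differences from -0.03 to 0.66 with a median of 0.28, of which 0 reached 1 in either direction. Of autosomal regions, 2.28% were higher by at least 1 and 2.93% lower. For 5 of the 7 the difference was above 0 beyond its counting interval, and for 2 its interval included 0, where 63.0% of autosomal regions had an interval that did not include 0. As deposited, all regions had a median difference of 0.11, and the total of all regions was higher in MommeD43 by 0.24, so small positive values depend on scaling.

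Tbx2, the paralog of Tbx3, and Tbx4, the paralog of Tbx5, lay with all of their exons in 1 region of 172250 bp, chr11:85806351-85978600. Its log2 value was 15.23 in WT and 15.74 in MommeD43, a difference of 0.50 (counting interval 0.48 to 0.52). Per kb this was 224 in WT and 317 in MommeD43. The linked pair on chromosome 11 had 5.14 times the level per kb of the Tbx3 region in WT and 1.27 times in MommeD43.

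Among genes of pharyngeal, cardiac and skeletal development, Tbx1, which patterns the pharyngeal arches and outflow tract, had 14.04 in WT and 14.56 in MommeD43, a difference of 0.52, and its region also held Gnb1l, Gp1bb and Sept5. Tbx18, a gene of somites, epicardium and sinus node, had 13.56 and 13.84, a difference of 0.28. Tbx15, a regulator of skeletal and muscle development, had 14.62 and 14.86, a difference of 0.24, over a region that held its start and 31.2% of its body. Tbx20, a cardiac regulator, had 14.28 in both genotypes, with a difference of -0.0071 (counting interval -0.04 to 0.02).

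The cortical members differed from each other as deposited, and less so with GC content taken into account. Eomes, the gene of intermediate progenitors, had 12.80 in WT and 13.46 in MommeD43, a difference of 0.66 (counting interval 0.61 to 0.70), the largest of the 7. Tbr1, the gene of deep-layer neurons, had 13.19 and 13.16, a difference of -0.03 (-0.07 to 0.02). With a running median of the autosomal difference over GC content removed, Eomes was at 0.56 and Tbr1 at 0.40, and with a trend over read density also removed they were at 0.34 and 0.17.

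Ordered by level per kb, Tbx5 was last among the member genes in both columns and Tbx3 was next to last in WT. In WT it was Tbx15 at 490, Tbx18 at 278, Tbx20 at 263, Tbx2 with Tbx4 at 224, Tbr1 at 216, Tbx1 at 185, Eomes at 161, Tbx3 at 43.5 and Tbx5 at 33.2. The step from Eomes to Tbx3 was 1.89 on the log2 scale, and each of the steps exceeded its counting error. In MommeD43 it was Tbx15 at 577, Tbx18 at 337, Tbx2 with Tbx4 at 317, Tbx1 at 266, Tbx20 at 262, Eomes at 254, Tbx3 at 249, Tbr1 at 212 and Tbx5 at 211. There, Tbx1 and Tbx20 did not differ beyond counting error (step 0.02, interval -0.0029 to 0.05), nor did Tbr1 and Tbx5 (step 0.01, interval -0.03 to 0.05). No line-to-line spread was available for either order.

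**Figure D3:**
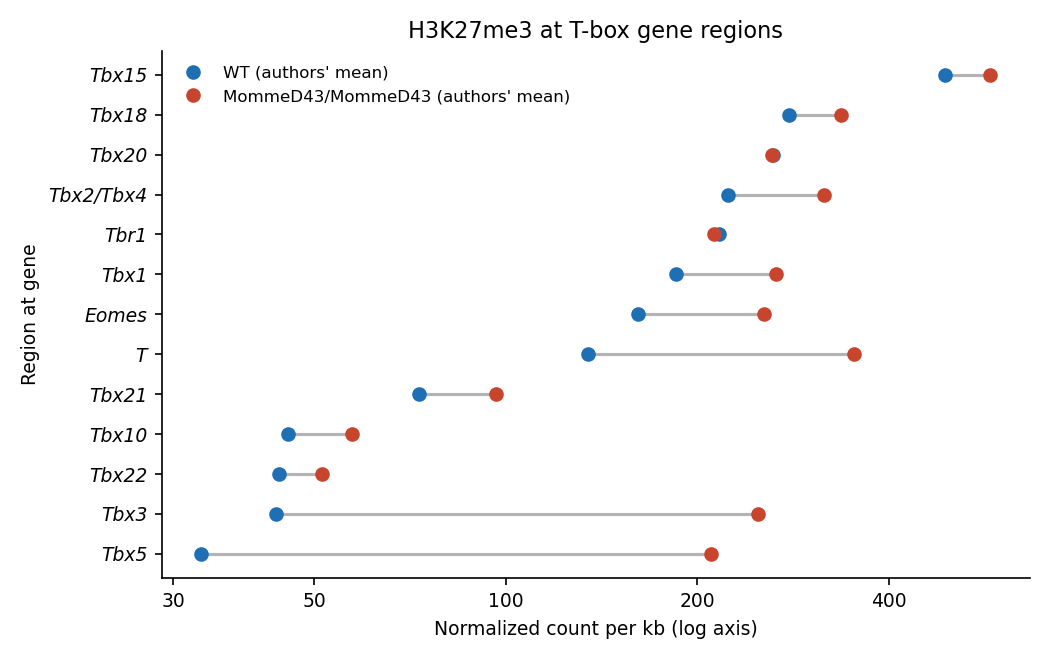
H3K27me3 at each T-box gene region as the authors' mean normalized count per kb (log axis), with blue for WT, red for MommeD43/MommeD43 and a grey line joining both values of a region, ordered by WT level. Tbx3 and Tbx5 have the longest lines and the lowest WT points, with Tbx22 and Tbx10, at 44.0 and 45.5, close to Tbx3 at 43.5. Their red points, at 249 and 211, lie close to those of the other member genes. Tbx5 is the lowest red point among member genes, just below Tbr1 at 212. Red points of Tbx22, Tbx10 and Tbx21, outside the member list, are lower, at 51.4, 57.2 and 96.5.

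T-box genes outside the member list gave a further view of the family. Of the 7, T, Tbx10, Tbx21 and Tbx22 had a region, and Tbx6, Tbx19 and Mga had none within 5 kb. T (brachyury), the founding member and a gene of primitive streak and notochord, had 11.85 in WT and 13.24 in MommeD43, a difference of 1.39 (counting interval 1.33 to 1.44), and was the 1 of these 4 past the threshold, which 6.09% of all regions and 2.28% of autosomal ones passed upwards. Per kb its region went from 135 to 353, and it also held the gene T2. Tbx21, the T-bet gene of T helper cells, differed by 0.40, Tbx10 by 0.33 and X-linked Tbx22, a palate gene, by 0.23. Per kb, Tbx21 went from 73.1 to 96.5, Tbx10 from 45.5 to 57.2 and Tbx22 from 44.0 to 51.4. In WT, Tbx10 and Tbx22 were thus close to the Tbx3 region, at 43.5.

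Partners and targets of T-box factors had differences below 1. The list held cardiac and limb genes such as Nkx2-5, Gata4 and Fgf10 and cortical genes such as Neurog2 and Reln. Of its 19 genes, 16 had 20 regions between them, with 0 past 1 in either direction, against 2.28% of autosomal regions higher and 2.93% lower, and a median difference of 0.13. With so few regions and so low a share, this count is near the background. Differences ran from 0.71 at Pitx1, a hindlimb regulator that acts with Tbx4, to -0.66 at Bcl11b, a gene of corticospinal neurons. Nkx2-5, a cardiac partner of Tbx5, differed by 0.28, and Gata4, another, by 0.33.

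Marker genes were checked for the labelled cell type. Of the NSC markers, Sox2, Vim, Fabp7 and Olig2 had no region within 5 kb. Regions at Hes1, Slc1a3, Hes5, Nes and Pax6 had differences of 0.0083, 0.066, 0.35, 0.56 and 1.18, in that order. The neuronal genes Tubb3, Dcx and Rbfox3 had 13 regions, all higher in MommeD43, where 60.2% of all regions were higher. Their differences ran from 0.15 to 1.09, and the 2 past 1, at 1.03 and 1.09, were at X-linked Dcx, on a chromosome where 29.8% of regions passed 1. The microglial genes Aif1 and Cx3cr1 had 5 regions, with differences from 0.097 to 0.46. The endothelial genes Pecam1 and Cdh5 and the cardiac genes Myh6 and Actc1 had none. Whether the makeup of the cultures took part in the differences at T-box genes was not tested.

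Differences between the columns followed GC content, with a Spearman correlation of 0.583 over the 11707 autosomal regions, which are not independent and share the same libraries. Interval regions had a GC content of 46.4% to 51.8%, with a median of 49.2% against 46.3% for autosomal regions. With a running median over GC content removed, their differences ran from 0.91 to 3.24 with a median of 2.31, Tbx3 was at 2.33 and Tbx5 at 2.47, and 8 of 10 reached 1, against 1.84% of autosomal regions. The first and last regions, at 0.91 and 0.95, did not. Tbr1 and Tbx20, which had the lowest GC content of the members at 40.7% and 41.2%, moved from near 0 to 0.40 and 0.35, and Tbx1, with the highest at 53.5%, moved from 0.52 to 0.096. T was at 1.22, and with the density trend also removed at 0.99, below the threshold of 1. With the GC trend removed, Tbx21 moved from 0.40 to 0.10, Tbx10 from 0.33 to -0.12 and X-linked Tbx22 from 0.23 to 0.84.

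**Figure D4:**
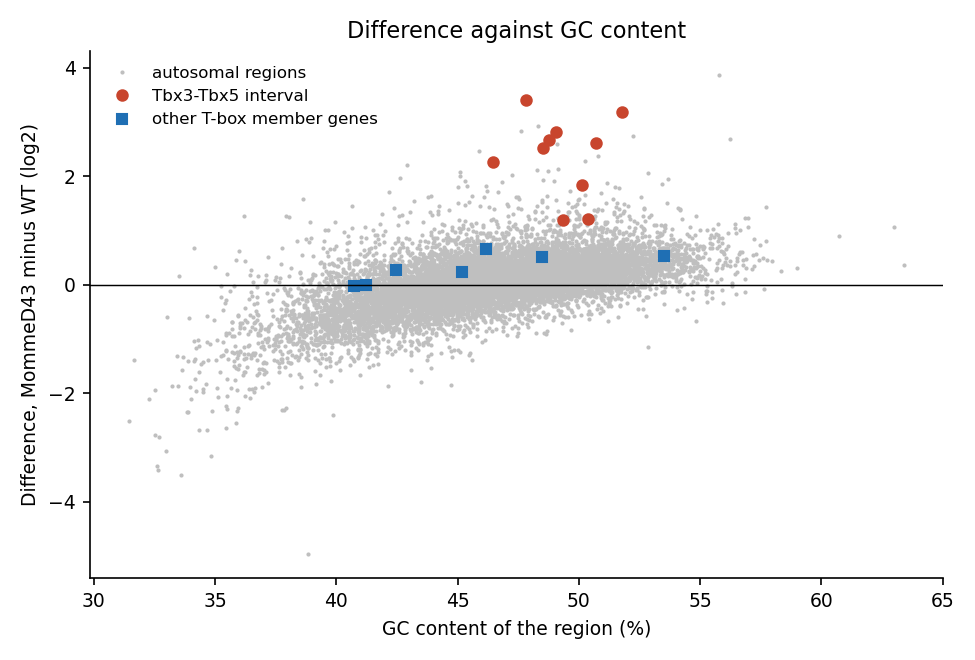
Difference in H3K27me3, MommeD43 minus WT on the log2 scale, against the GC content of the region in percent. Grey points are the 11707 autosomal regions, red circles the 10 interval regions and blue squares the 7 regions at other T-box member genes; differences rise with GC content, the red circles lie at 46.4% to 51.8% and towards or above the upper edge of the cloud, and the blue squares lie within it.

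Interval regions shared a CpG content above the autosomal median, at 15.5 to 19.1 per kb with a median of 17.4, against 12.3 for autosomal regions. The regions at other member genes had 10.3 to 19.99 per kb with a median of 15.6, so CpG content overlapped between them. Repeat-masked sequence made up 20.1% to 38.6% of the interval regions and 14.1% to 29.6% of the others, against an autosomal median of 23.1%. Interval regions were shorter, with a median of 15650 bp against 51350 bp. Protein-coding genes overlapped 3 of the 10 interval regions, namely Tbx3, Tbx5 and Rbm19, and the other 7 lay outside such genes, with a median difference of 2.61.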

How the data were processed

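H3K27me3 ChIP-seq was performed on 3 NSC lines per genotype. The labels name micrococcal nuclease digestion, whereas the methods of the study describe shearing, so fragmentation is uncertain. The authors trimmed reads with Trim Galore 0.4.4 and aligned them with Bowtie2 2.3.4.1 to GRCm38.p6. Peaks called in SeqMonk from both genotypes were combined, widened by 2.5 kb and joined where near. A peak in either genotype alone could therefore give a region. The deposited values are log2 normalized counts, averaged by the authors over the libraries of a genotype in 2 columns, neither divided by length nor corrected for whole cell extract.

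The members and gene lists, including the named regions and alternatives, were chosen with earlier results of these data known. Named regions were those at member genes, every interval region, the nearest region on each side, and those at the other T-box genes. Genes came from GENCODE mouse release 21, and GC content from the GRCm38 sequence. The antilog of 3 times a log2 value is the product of the 3 library counts, up to 1 constant per column. With that constant, 1138 of 1139 WT and 681 of 684 MommeD43 products under 30000 lay within 0.1 of a whole number. Median depth was 100.1 reads per region and library in WT and 129.96 in MommeD43, and the median counting error of a difference was 0.11. Counting intervals assume Poisson counts spread evenly over the libraries. Without molecular identifiers, reads need not be independent molecules, and the intervals cover counting error only. Levels per kb divide the antilog by region length. Trends were running medians over 40 bins, and the recovery of counts and trends was tested on simulated data. Differences were also recomputed with other scalings, trends, a pseudocount of 10, a mean count of at least 50 and other region rules. Values of 2 genes in these lists are not reported here. No test was run, since each genotype has 1 pooled value. Computations ran in Python 3.11.15 with matplotlib 3.10.9, scipy 1.17.1, pandas 2.3.3 and numpy 2.4.6.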

Additional observations from a re-analysis of the deposited data

How the results depend on the processing

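No paired analysis was possible because each genotype has 1 pooled column, and for the same reason no line could be left out in turn. The median difference of the interval, 2.56, was 2.32 when both columns were scaled to 1 total, 2.31 after removal of the GC trend, 2.26 after removal of the GC and density trends, 2.24 after removal of the abundance trend and 2.26 in the 7 regions whose mean count reached 50. Its summed ratio, 5.66, was 4.78, 4.95, 4.46 and 4.78 under the first 4 of these and 5.37 when centred on the autosomal median. The count of 10 regions past 1 was 8 with scaling to the total or with either GC removal. Each of the 60 interval values under the 6 scalings, trends and pseudocount was above 0, from 0.91 to 3.36.

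The median at other member genes, 0.28, was less stable. It was 0.034 with scaling to the total, 0.20 when centred, 0.35 with the GC trend removed, 0.12 with both trends removed and -0.036 with the abundance trend removed. Single regions that turned below 0 were Tbx15 (-0.0054 with scaling to the total, -0.044 with GC and density removed, -0.082 with abundance removed), Tbx18 (-0.036 with abundance removed), Tbx1 (-0.13 with GC and density removed), Tbx10 (-0.12 with GC removed, -0.11 with density also removed) and Tbx22 (-0.017 with scaling to the total). The cause was not tested for the trends. Scaling to the total takes the same 0.24 from every difference. The 23 named regions had 138 values under these alternatives, of which 65 lay inside the counting interval, 65 moved outside it, and 8 were the reversals above. Tbr1 and Tbx20, whose deposited differences were below 0 but within counting error of it, were above 0 at 0.40 and 0.35 with GC removed and at 0.17 and 0.12 with density also removed, so 12 values in all changed sign. Depth limits the weakest regions: counting errors reached 0.35 in the interval, where WT means were under 10 reads.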

Other observations

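The interval took up 0.0855% of the length covered by regions. It held 0.0343% of the normalized counts of all regions in WT and 0.164% in MommeD43. The region with the highest level per kb exceeded the lowest by 15.1 times in WT and 11.8 times in MommeD43. In both columns the highest was that at Tbx3, and the lowest was at chr5:119623551-119630350 in WT and at chr5:119082801-119090200 in MommeD43. Across the 10 regions, which share the same libraries, the Spearman correlation of the levels per kb of both genotypes was 0.879.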
